A study of Mus musculus with 20 samples.

Results

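The comparison set the pituitary of wild-type mice against their inguinal white fat, iWAT in the labels, which lies under the skin of the groin. The libraries labelled wild type were taken and the libraries labelled as knockouts of Klf14, a gene for a Krüppel-like transcription factor, were left out. This gave 10 of the 20 libraries of the series, 5 from the pituitary and 5 from iWAT. All 10 came from male C57BL/6N mice on chow that were wild type for Klf14, and no other allele or agent is labelled. The library titles carry mouse numbers. Numbers 33 and 34 are labelled 21 weeks of age, numbers 48 and 49 are labelled 19 weeks and number 56 is labelled 18 weeks, and the same 5 numbers occur in both tissues. No label says that a number is a single animal or that the libraries of a tissue come from separate animals, so the p-values measure only the spread between these libraries. Poly(A) RNA was read by single-end sequencing of 100 nucleotides, and the values below start from read counts per gene. Values given as a run of 5 are always in the order of mouse numbers 33, 34, 48, 49 and 56.

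The anterior pituitary holds endocrine cell types that each make a peptide or glycoprotein hormone, store it in dense-core granules and release it when signals from the hypothalamus arrive at their receptors. The posterior lobe holds glia called pituicytes and the axon ends of hypothalamic neurons. Inguinal fat consists of adipocytes, which store triglyceride in a lipid droplet and secrete adipokines, with their progenitors, fibroblasts, vessels, immune cells and, in the groin, a lymph node. Growth hormone and other pituitary hormones act on adipocytes, and leptin and other fat hormones act on the hypothalamus and pituitary.

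The 5 pituitary libraries held 14.0 to 16.4 M counts each (M, mega) and those of iWAT 14.8 to 17.2 M. Levels are given in CPM, a share of the library total per mega-count, after scaling by the trimmed mean of M-values (TMM), and levels of different genes are compared in RPKM, CPM per kilobase of counted exon. Multidimensional scaling took the distance between each pair of libraries from the genes that differed most in that pair. The first axis held 90.6% of the variance of these distances, not of all genes, and separated the tissues. The second held 3.65% and spread the iWAT libraries, with number 34 farthest out. The biological coefficient of variation, edgeR's estimate of the spread between libraries beyond counting error, was 0.0802 in the pituitary and 0.242 in iWAT. No pair of libraries within a tissue agreed within sampling noise (smallest reduced chi-square 4.70), so all 10 were kept. The iWAT libraries differed in markers of other cell types, as shown with those markers, and in Rn45s, the precursor of ribosomal RNA. The Rn45s level was 4297, 4573, 4118, 3980 and 3993 CPM in the pituitary and 33236, 45875, 24568, 19605 and 14713 CPM in iWAT. A poly(A) library should hold little of that RNA. The same holds for 2 short noncoding RNAs that were high in both tissues. Rpph1 was at 21261 RPKM in the pituitary and 17403 in iWAT, and Rmrp at 5052 and 8545. The part of these RNAs in other results was not tested. Bulk RNA does not tell fewer cells of a type from less RNA per cell, and this holds for every gene named below.

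The 6 genes that mark the tissues were found where their labels place them. Gh, which encodes growth hormone (chr11:106300261-106301896 in mm10, minus strand), was at 70173, 109130, 109090, 96930 and 82439 CPM in the pituitary and at 0.202 to 0.920 CPM in iWAT. Prl, the prolactin gene, was at 19247, 22874, 24385, 25393 and 19319 CPM in the pituitary, and its 3 counts in iWAT were all in library 33. Pomc, whose product is cut into corticotropin and melanocyte-stimulating hormone, was at 7479, 8896, 9156, 5381 and 4578 CPM in the pituitary and at 0.191 to 0.552 CPM in iWAT. In all 3 hormone genes every pituitary library lay above every iWAT library. Adipoq, the gene of the fat hormone adiponectin, had 0 counts in all pituitary libraries and was at 1857, 1388, 675, 1638 and 1101 CPM in iWAT. Fabp4, a fatty acid carrier of adipocytes, was at 2.29 to 3.17 CPM in the pituitary and at 8236, 5644, 2858, 6520 and 4622 CPM in iWAT. Plin1, the perilipin that coats the lipid droplet, was at 0 to 0.208 CPM in the pituitary and at 1181, 779, 356, 790 and 741 CPM in iWAT. Library 48 was the lowest iWAT library for Adipoq, Fabp4 and Plin1, and it was still far above every pituitary library.

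**Figure D1:**
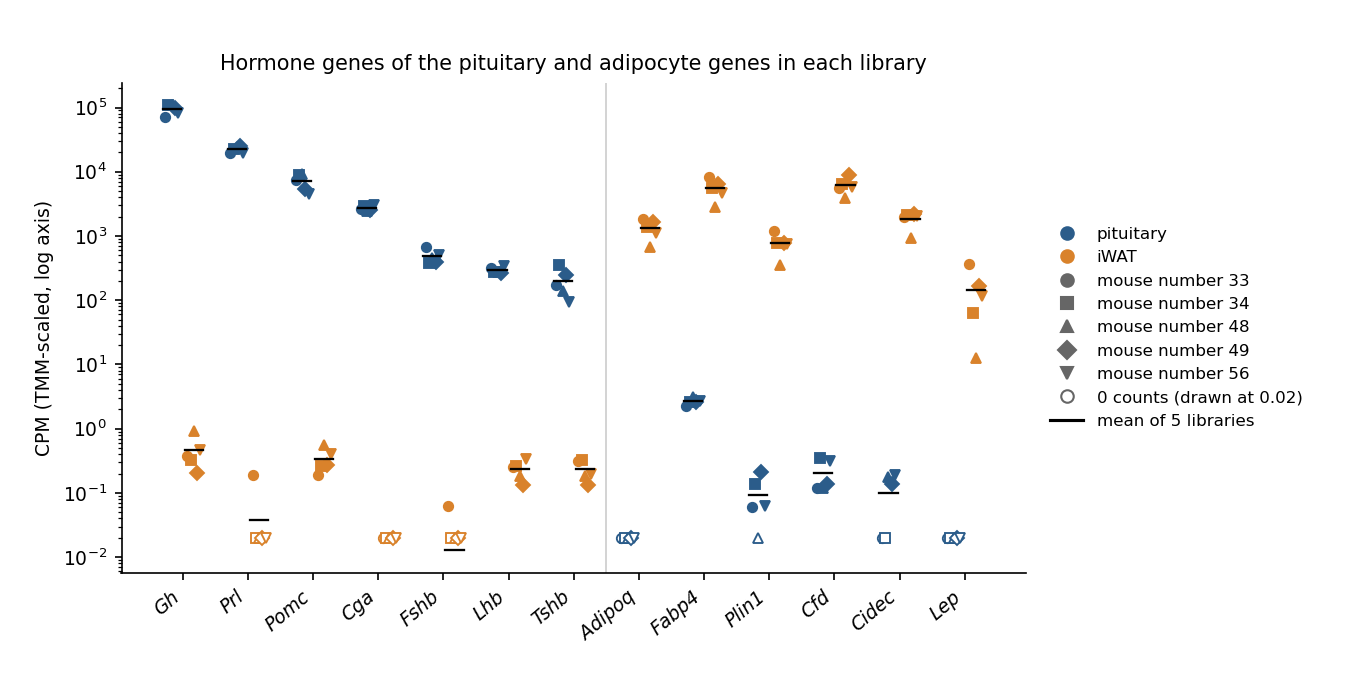
TMM-scaled CPM on a log axis of 7 pituitary hormone genes and 6 adipocyte genes in each of the 10 libraries; colour is the tissue, symbol shape the mouse number, the bar the mean of 5 libraries, and open symbols are libraries with 0 counts, drawn at 0.02. The groups of 5 do not overlap for any of the 13 genes, and library 48 is the lowest iWAT library for all 6 adipocyte genes.

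Over all genes, most of the transcriptome differed between the tissues. Of 17023 genes tested with edgeR's quasi-likelihood test, 13461 (79.1%) had a Benjamini-Hochberg adjusted p under 0.05 and are called different below. Of these, 6843 (40.2% of the genes tested) were higher in the pituitary and 6618 (38.9%) were higher in iWAT. Each count of called list members below is to be read beside these shares. Many of these differences were small, since 5698 of the called genes differed by less than 2-fold. When the same fit was tested against a 2-fold difference, 6583 genes (38.7%) passed, 3348 of them (19.7%) higher in the pituitary and 3235 (19.0%) higher in iWAT. The 2 groups of 5 libraries did not overlap for 11817 of the tested genes (69.4%). A difference of at least 16-fold was found for 2011 called genes, 1078 of them higher in the pituitary. The median log2 difference over all tested genes was 0.01, and every difference below is pituitary over iWAT on the log2 scale with its standard error (SE).

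A stricter description asked which genes were measured in practice in 1 tissue only, with all 5 libraries of that tissue at 10 CPM or more and all 5 of the other under 1 CPM. This held for 281 genes of the pituitary and 151 genes of iWAT. Among the pituitary genes were all 7 hormone genes, 13 transcription factors of the pituitary lineages and 6 receptors for hypothalamic signals. Among the iWAT genes were 4 genes of the lipid droplet, 4 adipokine genes, 2 Hox genes and 10 markers of lymph node B and T cells. The last group belongs to lymphoid cells and not to adipocytes. Such genes were admitted to the test by the counts of the higher tissue, which fixed the direction of their calls. Where they count in the lists below, their levels are a description.

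**Figure D2:**
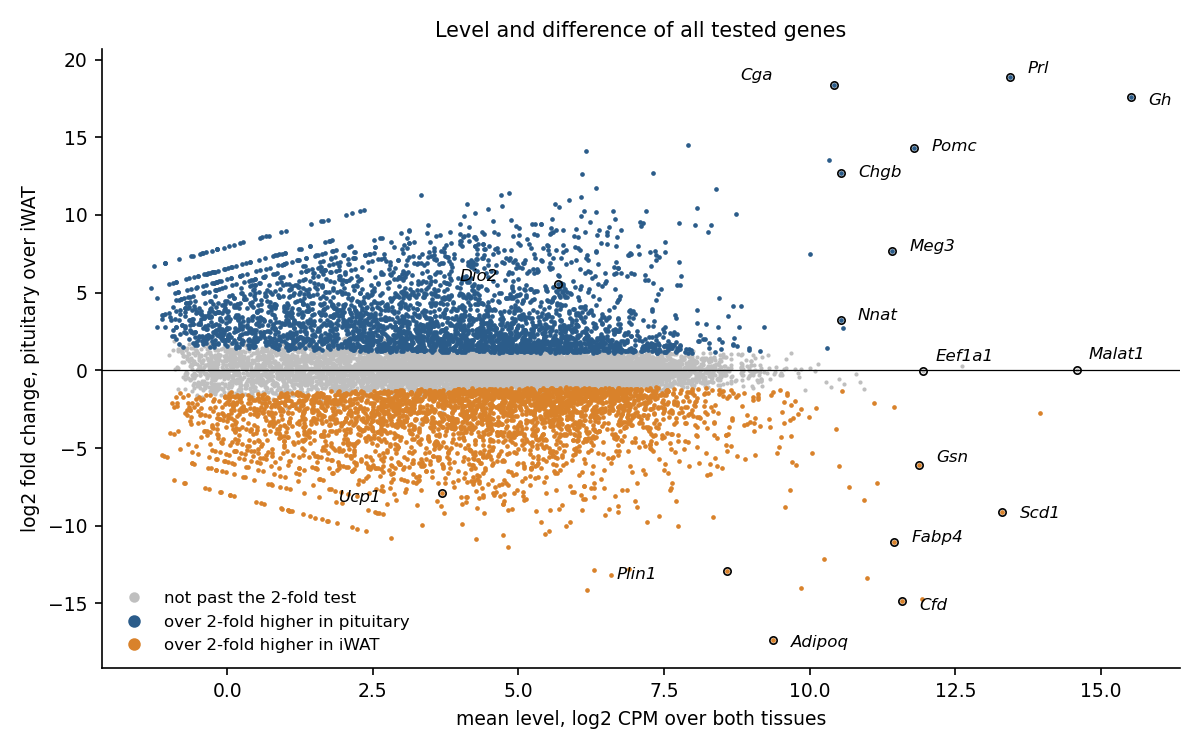
Mean level over both tissues (log2 CPM, x axis) against the log2 fold change of pituitary over iWAT (y axis) for the 17023 tested genes; blue and orange mark the 3348 and 3235 genes past the test of a 2-fold difference, grey the rest, and rings mark named genes. Genes with 0 counts in 1 tissue, such as Cga and Adipoq, are drawn at a fitted value that depends on the prior count and is no bound.

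The pituitary libraries were dominated by hormone transcripts. The 7 hormone genes took 13.1% ± 1.88 (SD, n = 5) of all counts in the pituitary, between 10.6% and 14.9%, and were close to absent from iWAT. The gene with the most counts was Gh in all 5 pituitary libraries, with 9.64% ± 1.598 of counts. In iWAT the first gene took 3.08% ± 0.809 and was Rn45s in libraries 33 and 34, the long noncoding RNA Malat1 in libraries 48 and 56, and the fatty acid desaturase gene Scd1 in library 49. The share of the first gene differed between the tissues without overlap (exact two-sided permutation test, p = 0.00794, the smallest it can give). The share of the 100 most abundant genes was 25.5% ± 1.42 in the pituitary and 23.0% ± 2.77 in iWAT, which did not pass the same exact test (p = 0.103). At 1 CPM or more, 15676 ± 96.6 genes were found in the pituitary and 15300 ± 131 in iWAT (exact permutation p = 0.00794).

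All 7 hormone genes were higher in the pituitary, against 40.2% of all tested genes, with a median log2 difference of 14.49. Their iWAT counts were too low to admit any of the 7 to the test. The low-count filter thus fixed the direction of these calls, and the levels are a description. In RPKM their order was Gh (103600 ± 18905, SD, n = 5), Prl (24881 ± 3185), Pomc (5357 ± 1552), Cga (3947 ± 367), Lhb (575 ± 68.0), Tshb (314 ± 158) and Fshb (303 ± 72.3). The first 4 are separated by more than their spread apart from the step from Pomc to Cga, and Tshb and Fshb do not differ beyond their spread. Gh was higher by 17.60 ± 0.41 (edgeR adjusted p = 3.44e-11) and Pomc by 14.33 ± 0.37 (edgeR adjusted p = 6.91e-11). For Prl the ratio of counts, corrected for depth, was 571390 with a 95% counting interval of 195520 to 2770700, because the iWAT libraries held only 3 counts.

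Cga encodes the alpha subunit that luteinizing hormone, follicle-stimulating hormone and thyrotropin share. It was at 2636, 2974, 2492, 2513 and 3021 CPM in the pituitary and had 0 counts in iWAT, which makes it at least 70224-fold higher against a floor of 3 counts over the 5 iWAT libraries. The beta subunits were scarcer. Lhb was at 319, 272, 270, 263 and 340 CPM and Fshb at 672, 386, 456, 399 and 501 CPM, the latter with 1 count in iWAT. Tshb, the thyrotropin beta subunit, was at 175, 354, 140, 250 and 93.8 CPM. Tshb had the highest coefficient of variation in the pituitary, 50.3%, of all genes with a mean of at least 20 CPM there, while Cga varied by 9.30%.

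Promoter sequences of the hormone genes are shown because these genes carry the largest differences and the letters near their start sites can be set beside the motifs of known pituitary regulators. The 250 bases before the RefSeq start (GRCm38.p6) of Prl (chr13:27057320-27057569, plus strand), Cga (chr4:34893529-34893778, plus strand) and Pomc (chr12:3954695-3954944, plus strand) are printed 5′ to 3′. Capitals mark matches, on either strand, to TATAAA (the box that sets many start sites), ATGNATA (the core bound by POU1F1-type factors) or TAATCC (the core bound by PITX-type factors).
Prl: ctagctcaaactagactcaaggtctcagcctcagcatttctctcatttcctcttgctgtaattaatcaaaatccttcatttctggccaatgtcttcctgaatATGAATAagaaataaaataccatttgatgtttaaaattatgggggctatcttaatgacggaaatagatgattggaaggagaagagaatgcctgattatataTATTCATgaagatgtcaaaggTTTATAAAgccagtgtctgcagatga
Cga: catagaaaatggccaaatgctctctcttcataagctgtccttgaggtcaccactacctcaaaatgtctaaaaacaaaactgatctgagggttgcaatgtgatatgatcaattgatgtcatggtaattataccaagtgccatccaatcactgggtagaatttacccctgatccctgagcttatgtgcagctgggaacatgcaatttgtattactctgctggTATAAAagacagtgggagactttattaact
Pomc: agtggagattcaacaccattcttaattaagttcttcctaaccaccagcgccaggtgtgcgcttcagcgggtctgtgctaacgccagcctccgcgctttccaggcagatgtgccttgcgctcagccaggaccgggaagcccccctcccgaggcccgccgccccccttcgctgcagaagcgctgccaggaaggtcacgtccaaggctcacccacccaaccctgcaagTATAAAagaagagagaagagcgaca
All 3 windows hold TATAAA on the sense strand, with its first base 24 (Prl), 30 (Cga) and 25 (Pomc) bases before the start. In Prl a TATAAA on the other strand overlaps it. ATGNATA lies in the Prl window at 148 bases before the start on the sense strand and at 47 on the other. Of the 27025 promoter windows of this length in the table, 12.97% hold TATAAA and 8.16% hold ATGNATA on either strand. The Pomc window is rich in CpG (observed over expected 0.684), the Prl window is not (0.129) and the Cga window has 0 CpG. A match is a description of the letters and shows no binding.

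The transcription factors that set pituitary cell fates followed the hormones. Of 24 listed, 22 could be tested and all 22 were higher in the pituitary, with a median of 7.31, against 40.2% of all tested genes. Of these, 13 were under 1 CPM in every iWAT library. Their pituitary counts admitted them to the test, which fixed the direction of their calls. All 22 also passed the test of a 2-fold difference. Pou1f1, which somatotropes, lactotropes and thyrotropes need, was at 145, 134, 130, 131 and 130 CPM in the pituitary and had 4 counts in iWAT. Its difference was 11.13 ± 0.28 (edgeR adjusted p = 5.44e-11), the largest of the list. Lhx3, which acts early in the gland's development, was higher by 10.69 ± 0.32. Tbx19, the factor of Pomc cells, was higher by 9.29 ± 0.29, and Nr5a1, the steroidogenic factor of gonadotropes, by 7.59 ± 0.32. Pax7, found in the intermediate lobe, was at 23.9 ± 3.63 CPM against 4 counts in iWAT. The smallest difference was that of Gata2 (1.48 ± 0.17), a factor of gonadotropes and thyrotropes that also occurs in fat and blood cells, with 30.8 ± 6.72 CPM in the pituitary and 11.1 ± 2.07 in iWAT. Hesx1 and Sox3, with 54 and 9 pituitary counts, were too low to test.

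Receptors for hypothalamic signals were all higher in the pituitary (13 of 13, median 6.91), and 12 passed the test of a 2-fold difference. Ghrhr, the receptor for growth hormone-releasing hormone, was at 139, 138, 152, 138 and 150 CPM and had 0 counts in iWAT, so it was at least 3703.6-fold higher. Drd2, the dopamine receptor that restrains prolactin release, was at 58.8, 58.5, 47.3, 48.9 and 46.8 CPM, with 1 count in iWAT (ratio 4022.1, 95% counting interval 721 to 158900). Per length Ghrhr (89.7 ± 4.30 RPKM), Drd2 (33.6 ± 3.92) and Gnrhr, the gonadotropin-releasing hormone receptor (32.1 ± 8.21), were the most abundant of the list, and the last 2 do not differ beyond their spread. Gnrhr was higher by 7.18 ± 0.28 and Trhr, the thyrotropin-releasing hormone receptor, by 7.18 ± 0.52. Crhr1, the receptor for corticotropin-releasing hormone, was at 21.4 ± 4.11 CPM with 3 counts in iWAT.

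Somatostatin receptors, which restrain growth hormone release, were measured at unequal levels per length in the pituitary. Sstr1 was at 9.88 ± 2.72 RPKM, Sstr3 at 6.56 ± 1.73, Sstr5 at 3.56 ± 0.854 and Sstr2 at 0.842 ± 0.208. Sstr1 and Sstr3 do not differ beyond their spread. Sstr5 had 0 counts in iWAT, which makes it at least 252.59-fold higher in the pituitary. The ghrelin receptor gene Ghsr was at 1.88 ± 0.466 RPKM, the vasopressin receptor gene Avpr1b at 1.09 ± 0.293 and the orphan receptor gene Gpr101 at 0.428 ± 0.238. The exception to the tissue difference was Adcyap1r1, the receptor for PACAP, with 60.2, 50.3, 49.9, 61.1 and 72.8 CPM in the pituitary and 34.7, 40.7, 38.9, 52.6 and 55.0 CPM in iWAT. Its groups overlapped and its difference of 0.41 ± 0.15 (edgeR adjusted p = 0.0255) was the smallest of the list. That call was lost without pituitary library 56 or iWAT library 33, 34 or 48 (edgeR adjusted p = 0.0594 to 0.0674).

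The machinery that makes and fills secretory granules was higher in the pituitary in 13 of 13 genes (median 8.92), all past the test of a 2-fold difference. The granins Chgb and Scg2, acidic proteins of the granule core, were at 2959 ± 244 and 2564 ± 263 CPM, and Chga was at 673 ± 48.5 CPM. Chgb was higher by 12.73 ± 0.39, Scg2 by 13.54 ± 0.43 and Chga by 11.70 ± 0.24. The convertases that cut prohormones followed, with Pcsk1 higher by 8.91 ± 0.18 and Pcsk2 by 9.05 ± 0.44, and Pcsk2 shares exon bases with another gene. Enzymes that finish the peptide ends were found in both tissues. Cpe, a carboxypeptidase, was at 778 ± 27.7 CPM in the pituitary and 44.4 ± 11.6 in iWAT, and Pam, which amidates peptides, was at 1041 ± 65.6 and 148 ± 39.9. Resp18, another granule protein gene, was among the 12 largest differences of the pituitary, with 316 ± 22.02 CPM against 3 counts.

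Genes of regulated exocytosis were higher in the pituitary in 13 of 14 (median 4.48). The synaptotagmin genes Syt4 and Syt1 were higher by 8.01 ± 0.24 and 6.25 ± 0.27, and the SNARE gene Snap25 by 7.68 ± 0.51. Vamp2 and Stx1a, the partners of Snap25 in the SNARE complex, differed far less, by 0.38 ± 0.10 and 0.55 ± 0.17, and their groups overlapped. The call of Stx1a was lost without iWAT libraries 33, 49 and 56 (edgeR adjusted p = 0.129). Cplx1, which clamps the complex, was at 0.981 ± 0.382 and 0.397 ± 0.470 CPM and was not called (edgeR adjusted p = 0.0843). Of 17 genes of voltage-gated channels, 15 were higher in the pituitary (median 3.65). Among them were Scn3a, a sodium channel (5.75 ± 0.12), Cacna1d, an L-type calcium channel (3.81 ± 0.06), and Kcnma1, the large-conductance potassium channel (3.65 ± 0.235). Of the 2 that were higher in iWAT, Cacna1e, a calcium channel gene, differed by −1.17 ± 0.31. Of 11 neuron markers, 10 were higher in the pituitary (median 4.51), and their summed level was 780 to 866 CPM there against 19.6 to 32.7 CPM in iWAT. Endocrine cells and nerve endings share many such genes, and the data do not tell them apart.

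Markers of the supporting cells gave a mixed picture. Of 12 folliculostellate and stem cell markers, 3 were higher in the pituitary and 5 in iWAT, beside 40.2% and 38.9% of all tested genes. Sox2, a stem cell factor, was higher in the pituitary by 7.16 ± 0.28, and Aldh1a2 by 4.41 ± 0.17. S100b (−1.17 ± 0.31) and Aldh1a1 (−2.08 ± 0.40), which adipose cells also express, were higher in iWAT. The keratin genes Krt8 and Krt18 did not pass the test (edgeR adjusted p = 0.148 and 0.167), with overlapping groups. Without iWAT library 34, 7 members were higher in the pituitary and 4 in iWAT. That library had the highest summed level of this list in iWAT, and a shift toward the pituitary follows from leaving it out. Of 8 posterior lobe markers, 7 were higher in the pituitary (median 5.41), with the pituicyte factors Rax (7.47 ± 0.60) and Nkx2-1 (5.23 ± 0.52) at 3.71 ± 1.43 and 1.27 ± 0.340 CPM. Oxt and Avp, the hypothalamic hormone genes, were at 9.15 ± 2.07 and 2.88 ± 0.830 CPM. Markers of all 3 lobes were thus present in the pituitary libraries. Scn7a went the other way (−1.48 ± 0.30), and its groups overlapped.

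**Figure D3:**
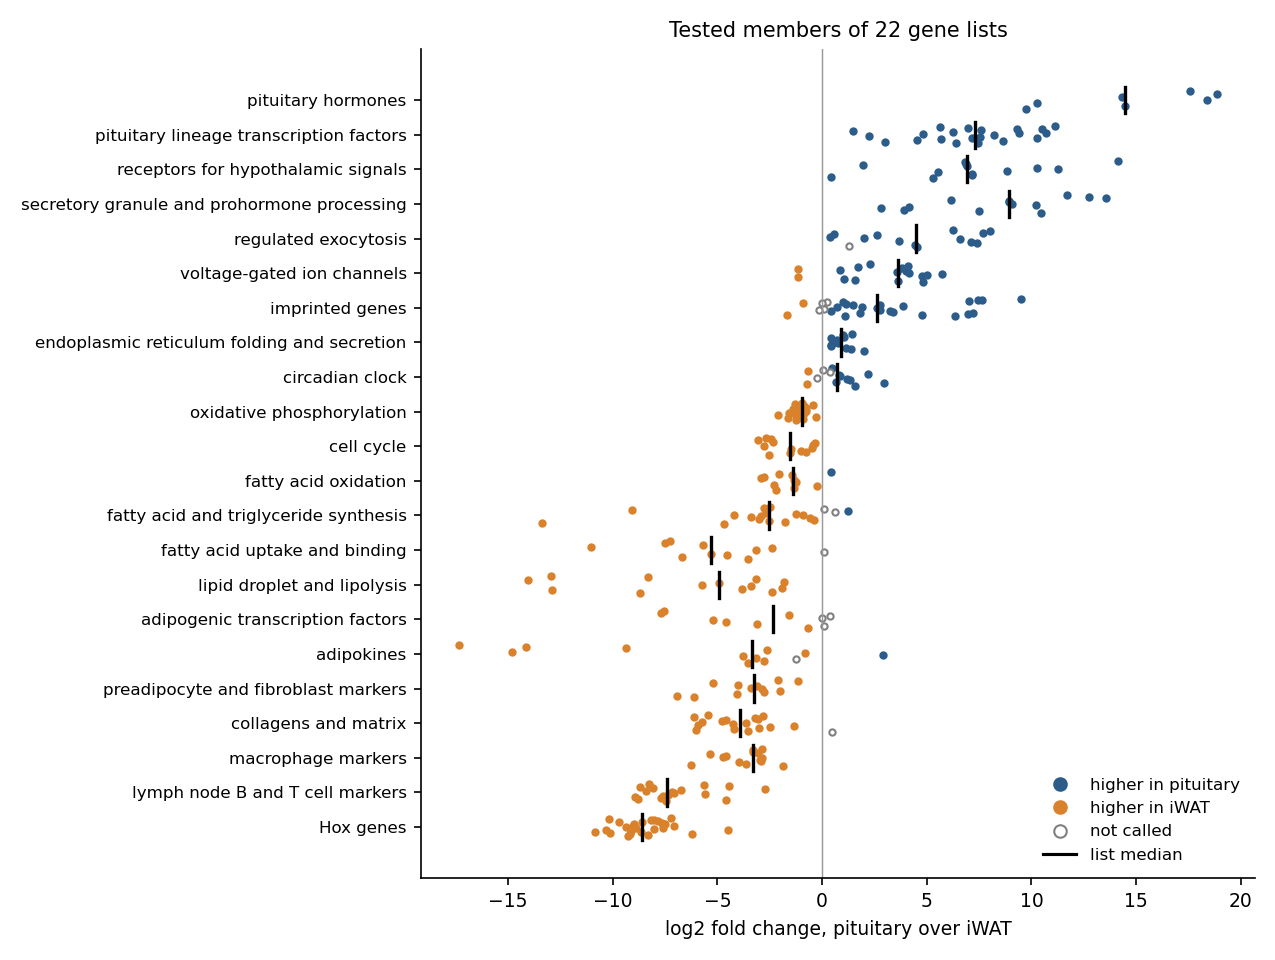
Log2 fold change of pituitary over iWAT (x axis) of the tested members of 22 gene lists (y axis); each point is a gene, filled where it was called and open where it was not, and the bar is the list median. Hormone, granule and receptor genes lie far to the right, Hox and lymph node genes far to the left, and adipokines and adipogenic factors spread from large differences to none.

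In iWAT the genes of the lipid droplet gave the counterpart to the hormone genes. All 13 genes of the droplet and of lipolysis were higher in iWAT (median −4.93), all past the test of a 2-fold difference, against 38.9% of all tested genes called in that direction. Cidec, which joins small droplets into a large droplet, was at 1986, 2103, 941, 2170 and 2062 CPM in iWAT and at 0 to 0.188 CPM in the pituitary, a difference of −14.04 ± 0.45 (edgeR adjusted p = 3.75e-10). Plin1 differed by −12.94 ± 0.50 and Plin4, another coat protein, by −8.33 ± 0.45. Adrb3, the adrenergic receptor that starts lipolysis in mouse fat, was at 157 ± 52.7 CPM with 1 count in the pituitary. The lipases that follow it were in both tissues. Pnpla2 was at 1380 ± 328 CPM in iWAT and 45.2 ± 7.36 in the pituitary, Lipe at 928 ± 258 and 17.5 ± 1.79, and Mgll, which completes the breakdown, at 603 ± 229 and 57.1 ± 5.87. Abhd5, the coactivator of the first lipase, was at 95.7 ± 24.1 and 25.6 ± 1.17 CPM.

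The 250 bases before the start sites of Adipoq and Plin1 are printed for comparison with the hormone genes, again from RefSeq (GRCm38.p6) and 5′ to 3′. They lie at chr16:23146286-23146535 on the plus strand and at chr7:79732777-79733026 on the minus strand. Capitals mark TAATCC or TTGCNNAA, a core of C/EBP sites, on either strand.
Adipoq: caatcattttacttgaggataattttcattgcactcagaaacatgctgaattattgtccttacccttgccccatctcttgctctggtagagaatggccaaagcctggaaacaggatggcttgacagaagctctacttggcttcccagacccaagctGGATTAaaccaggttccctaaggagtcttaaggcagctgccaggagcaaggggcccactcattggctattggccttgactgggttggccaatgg
Plin1: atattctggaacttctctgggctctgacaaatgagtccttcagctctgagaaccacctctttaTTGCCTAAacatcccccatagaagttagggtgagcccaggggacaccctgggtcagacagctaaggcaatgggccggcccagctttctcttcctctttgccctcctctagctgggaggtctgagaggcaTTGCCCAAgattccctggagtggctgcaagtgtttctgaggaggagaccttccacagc
Neither window holds TATAAA, as is the case for most windows in the table. The printed windows are those of a few chosen genes and do not describe their tissues. The table held no window for Gh or Fabp4. Plin1 holds TTGCNNAA at 187 and at 58 bases before the start, and Adipoq holds TAATCC on the other strand at 94. Of all windows, 9.55% hold TTGCNNAA and 6.38% hold TAATCC. Both windows are poor in CpG (observed over expected 0 and 0.0550).

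Fatty acid uptake and binding was higher in iWAT in 10 of 11 genes (median −5.30). Lpl, the lipase that frees fatty acids from lipoproteins, was at 4560 ± 1197 CPM in iWAT and 29.6 ± 4.41 in the pituitary, and the transporter gene Cd36 at 3259 ± 1101 and 17.8 ± 12.9. Fabp4 differed by −11.02 ± 0.36 and Acsl1, which activates fatty acids, by −5.30 ± 0.22. The transporter gene Slc27a4 was at nearly the same level in both tissues (28.6 ± 3.69 and 30.1 ± 3.08 CPM, edgeR adjusted p = 0.534). Of 19 genes of fatty acid and triglyceride synthesis, 16 were higher in iWAT and 1 in the pituitary (median −2.53). Scd1, which introduces the double bond of oleate, was at 26855, 12694, 13037, 33701 and 15068 CPM in iWAT and at 28.7 to 43.8 CPM in the pituitary (−9.09 ± 0.41). Its paralog Scd2 was the member higher in the pituitary (1.22 ± 0.15), at 358 ± 15.9 against 154 ± 37.3 CPM, and it shares exon bases with another gene. Pck1, which makes glycerol phosphate for triglyceride, showed the largest difference of the list (−13.39 ± 0.45). Fasn (−2.49 ± 0.19) and Acaca (−2.75 ± 0.13), the enzymes that build the fatty acid chain, were well measured in the pituitary too, at 278 ± 6.41 and 89.0 ± 2.15 CPM. Acly, which supplies their acetyl-CoA, did not pass the test (192 ± 8.85 and 182 ± 16.6 CPM, edgeR adjusted p = 0.330). Of 12 fatty acid oxidation genes, 11 were higher in iWAT (median −1.40) and Cpt1a, the carnitine transferase of the outer mitochondrial membrane, was higher in the pituitary (0.42 ± 0.07).

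Adipokine genes ranged from the largest differences of iWAT to none. Of 12, 10 were higher in iWAT and 1 in the pituitary (median −3.35). Adipoq was at least 34582-fold higher against the floor of 3 counts. Lep, the leptin gene, had 0 counts in the pituitary and was at 365, 62.3, 12.6, 168 and 115 CPM in iWAT (at least 3755.8-fold higher, or 2284.0-fold without library 33). Its level was highest in library 33 and lowest in library 48. Cfd, which encodes the complement protease adipsin, was at 5533, 6424, 3882, 9045 and 5798 CPM in iWAT and differed by −14.82 ± 0.38. Retn, the resistin gene, differed by −9.39 ± 0.37. Nampt differed by only −0.82 ± 0.11. Apln, the apelin gene, was higher in the pituitary (2.92 ± 0.21), at 19.97 ± 0.937 against 2.63 ± 1.02 CPM. Other genes among the 12 largest iWAT differences were Car3, a carbonic anhydrase abundant in fat (7816 ± 2796 CPM against 22 counts), Cyp2e1, a cytochrome P450 (2430 ± 978 CPM), and the carboxylesterase gene Ces1f (240 ± 81.2 CPM).

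The factors that drive adipocyte formation differed unequally. Of 10, 7 were higher in iWAT and 3 were not called (median −2.34). Pparg, the nuclear receptor that adipocytes require, was at 189, 171, 114, 223 and 187 CPM in iWAT and 0.563 to 1.24 CPM in the pituitary (−7.57 ± 0.24, edgeR adjusted p = 3.41e-10). Cebpa, its partner, differed by −7.71 ± 0.36, and Ebf2 by −4.61 ± 0.28. Cebpd (43.0 ± 5.82 CPM in the pituitary, 33.3 ± 14.5 in iWAT), Klf15 (52.3 ± 15.1 and 51.7 ± 22.7) and Zfp423 (43.0 ± 2.97 and 40.04 ± 10.1) did not pass the test (edgeR adjusted p = 0.200, 0.965 and 0.587).

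Thermogenic genes were higher in iWAT in 10 of 12 tested (median −1.99), with a summed level of 448 CPM in library 48 and 111 to 223 CPM in the others. Ucp1, the uncoupling protein of brown and beige adipocytes, was at 2.23, 0.906, 114, 7.33 and 4.40 CPM in iWAT and at 0.0602 to 0.188 CPM in the pituitary. Library 48, lowest for Adipoq, Lep and Cidec, was highest for Ucp1, for Cidea (106 CPM, with 17.8 to 56.1 in the others) and for Cox8b (46.9 CPM, with 14.3 to 30.6 in the others). Without that library 10 of 12 members were still higher in iWAT (median −1.66). Dio2, the deiodinase that makes active thyroid hormone, went the other way. It was at 110, 104, 73.8, 113 and 102 CPM in the pituitary, where it takes part in thyroid feedback, and at 0.764, 5.31, 1.41, 2.15 and 1.07 CPM in iWAT (5.55 ± 0.41, edgeR adjusted p = 2.26e-07).

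Of 10 genes of insulin action, 7 were higher in iWAT and 3 were not called (median −1.58). Slc2a4, the insulin-regulated glucose transporter, was at 93.5 ± 16.9 CPM in iWAT and 2.04 ± 0.823 in the pituitary (−5.52 ± 0.26). Pde3b, which carries insulin's brake on lipolysis, differed by −3.18 ± 0.18, and Akt2, the main insulin-pathway kinase of fat, by −2.07 ± 0.18. The insulin receptor gene Insr itself differed by only −0.64 ± 0.12, at 420 ± 76.3 and 271 ± 11.2 CPM. Irs4, a receptor substrate outside this list, was a pituitary gene, with 163, 128, 120, 133 and 138 CPM and 1 count in iWAT (ratio 10578, 95% counting interval 1898.2 to 417860).

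The remaining iWAT lists describe cells around the adipocyte. All 12 preadipocyte and fibroblast markers were higher in iWAT (median −3.25). Among them were Dpp4 (−5.22 ± 0.18) and Pi16 (−4.03 ± 0.485), which mark early progenitors, and Pdgfra (−2.13 ± 0.22). Gsn, the actin-severing protein gelsolin, was among the 12 most abundant transcripts of iWAT per length (2521 ± 1073 RPKM). Of 18 collagen and matrix genes, 17 were higher in iWAT (median −3.93). Col3a1 was at 5250, 1592, 1108, 5147 and 1150 CPM in iWAT and at 37.1 to 45.9 CPM in the pituitary, and Col1a1 varied alike across the iWAT libraries (1873, 707, 478, 1829 and 317 CPM). Loxl1, which cross-links elastin, was not called (edgeR adjusted p = 0.159).

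Immune cell markers were high in iWAT. All 18 lymph node B and T cell markers were higher there (median −7.41), with a summed level of 1343, 1706, 2649, 732 and 2216 CPM against 29.8 to 37.7 CPM in the pituitary. Of these markers, 10 were under 1 CPM in every pituitary library, and the direction of their calls was fixed by the iWAT counts. The summed level was highest in library 48 and lowest in library 49. Ms4a1 (−8.68 ± 0.61), the B cell antigen CD20, and Ccr7 (−8.96 ± 0.45), the homing receptor of lymph nodes, differed by more than the list median, and the smallest difference was that of the complement receptor gene Cr2 (−2.71 ± 0.34). Cd209b and Timd4, which macrophages express, stood among the 12 largest iWAT differences, each with 1 count in the pituitary. Cd209b was at 162, 128, 310, 189 and 177 CPM in iWAT and Timd4 at 40.6, 35.0, 97.4, 56.1 and 52.8 CPM. All 14 macrophage markers were higher in iWAT (median −3.31), among them Ptprc, the pan-leukocyte CD45 (−6.27 ± 0.30), and C1qa, a complement subunit (−2.86 ± 0.25). Of 13 endothelial markers, 11 were higher in iWAT (median −1.94). Plvap, found in fenestrated vessels such as those of the pituitary, and Emcn were not called (edgeR adjusted p = 0.440 for each), while the junction gene Cldn5 differed by −5.86 ± 0.32. All 13 cell cycle genes were higher in iWAT (median −1.56), with Mki67 at 66.7 ± 20.4 against 10.5 ± 2.53 CPM. The part of lymphoid cells in the cell cycle difference was not tested.

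Markers of tissues that do not belong to fat split the iWAT libraries. Summed muscle markers were at 619, 534, 722, 230 and 378 CPM in iWAT and 412 to 549 CPM in the pituitary. These sums do not show how most members differed. Of 13 tested muscle markers, 8 were higher in iWAT and 1 in the pituitary (median −2.32). Over all tested genes the shares were 38.9% and 40.2%. Myh4, the myosin of fast muscle, was at 56.1, 29.8, 58.8, 0.0673 and 0.133 CPM in iWAT and 0.208 to 0.413 CPM in the pituitary, and the low-count filter did not admit it to the test. Liver markers, a list added after the data were seen, summed to 759, 48.2, 57.4, 1172 and 538 CPM in iWAT and 28.2 to 49.4 CPM in the pituitary. Alb, the albumin gene, was at 286, 18.5, 17.4, 336 and 214 CPM in iWAT. With libraries 33, 49 and 56 left out, which were picked for these high levels, 6 of 13 liver markers were higher in iWAT in place of 12 and 2 in the pituitary in place of 0, and a lower count in iWAT follows from that choice. Markers of glandular epithelium, also added after the data were seen, summed to 8.78, 516, 87.6, 25.4 and 9.19 CPM in iWAT against 479 to 568 CPM in the pituitary. Krt8 was at 0.828, 63.5, 10.4, 2.02 and 0.666 CPM and Epcam at 0.828, 41.0, 8.22, 2.22 and 1.998 CPM in iWAT. In the pituitary these were at 39.1 to 59.3 and 308 to 364 CPM. Without iWAT library 34, 8 of 11 epithelial markers were higher in the pituitary, and with it 2 were. That library was picked for its high level, and a shift toward the pituitary follows from that choice. The hemoglobin genes Hba-a1 and Hbb-bs did not pass the test (edgeR adjusted p = 0.108 and 0.0614), and the summed red cell markers were at 1216 to 1719 CPM in the pituitary and 1949, 2307, 939, 4005 and 1973 CPM in iWAT. Of 5 red cell markers 1 was higher in iWAT, and 4 were without iWAT library 48. That library had the lowest sum of iWAT, and a shift toward iWAT follows from leaving it out. Hba-a1, Hba-a2 and Hbb-bs share exon bases with other genes. Hba-a1 and Hba-a2 had 36017 and 36016 counts in the pituitary and 52206 and 52202 in iWAT. These members are thus not separate, and reads enter the sum more than once. All 6 Schwann cell and myelin markers were higher in iWAT (median −2.81), and of the 4 keratinocyte markers with enough counts to test 2 were higher in each tissue.

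**Figure D4:**
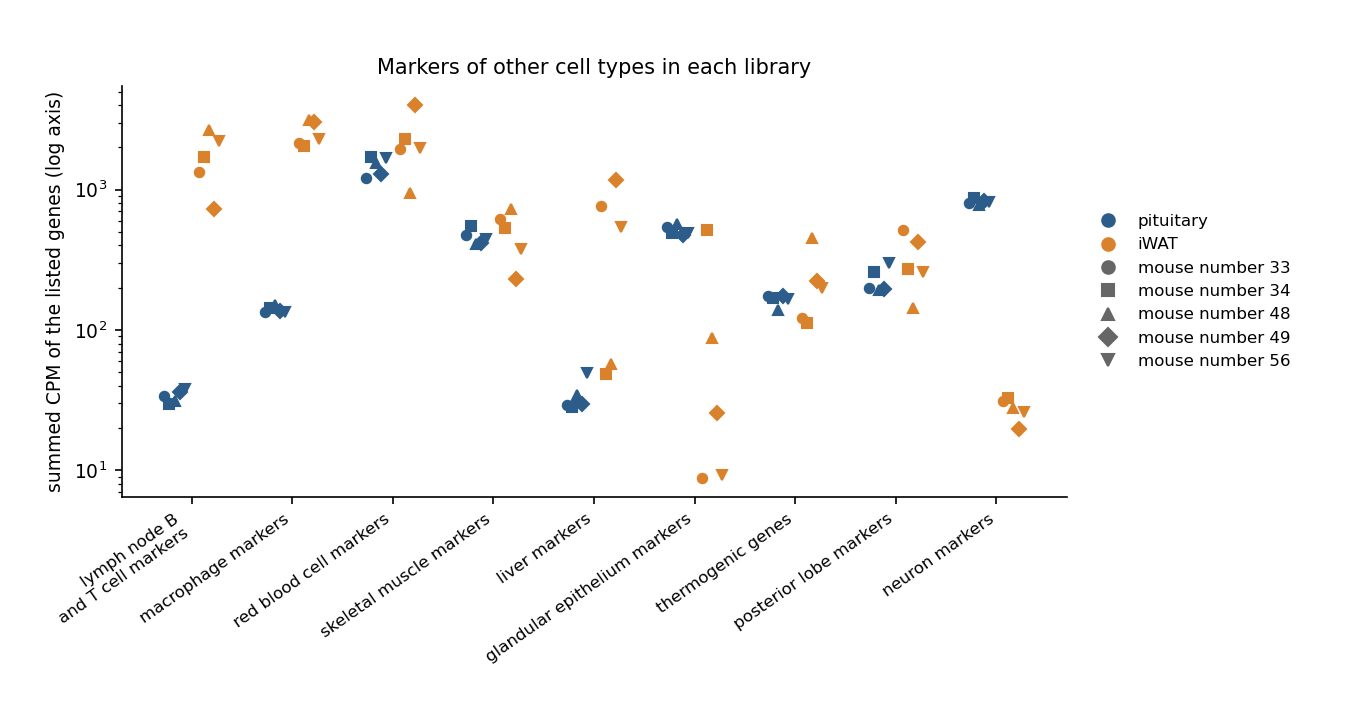
Summed CPM on a log axis (y) of the markers of 9 cell types or programmes (x) in each library; colour is the tissue and symbol shape the mouse number. Liver markers are high in iWAT libraries 33, 49 and 56, epithelial markers in iWAT library 34, and thermogenic genes in iWAT library 48, and the pituitary libraries run from 28.2 to 49.4 CPM in the liver markers.

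The hormones of each tissue can be set beside their receptors in the other. Of 7 receptors for pituitary hormones, 5 were tested and 4 were higher in iWAT (median −5.43). Ghr, the growth hormone receptor, was at 1376, 747, 268, 844 and 499 CPM in iWAT and at 19.6, 21.2, 19.4, 21.9 and 22.3 CPM in the pituitary (−5.16 ± 0.40, edgeR adjusted p = 3.19e-07). Tshr, the thyrotropin receptor, was at 128, 100, 40.9, 112 and 89.98 CPM in iWAT and 1.39 to 3.001 CPM in the pituitary (−5.43 ± 0.33). Mc2r, the corticotropin receptor, was at 23.9, 11.8, 6.01, 17.02 and 11.3 CPM in iWAT and had 0 counts in the pituitary (at least 364-fold higher). Mc5r, another melanocortin receptor, was at 1.02 to 5.85 CPM in iWAT (−5.53 ± 0.78). The groups did not overlap in any of these 4, as in 69.4% of all tested genes. Lhcgr and Fshr, the gonadotropin receptors, had 25 and 6 counts in iWAT and were too low to test.

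Prlr, the prolactin receptor, behaved differently. It was at 155, 147, 140.5, 145 and 131 CPM in the pituitary and at 10.6, 290, 50.5, 21.3 and 5.26 CPM in iWAT, so that the groups overlapped through library 34 alone, and the difference of 0.93 ± 0.86 did not pass the test (edgeR adjusted p = 0.340). Without iWAT library 34 it was 2.68 (edgeR adjusted p = 0.000775). That library was picked for its high level, and a larger difference follows from that choice. Library 34 also had the highest Krt8, Krt18 and Epcam levels of iWAT, and the part of epithelial cells in its Prlr level was not tested.

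**Figure D5:**
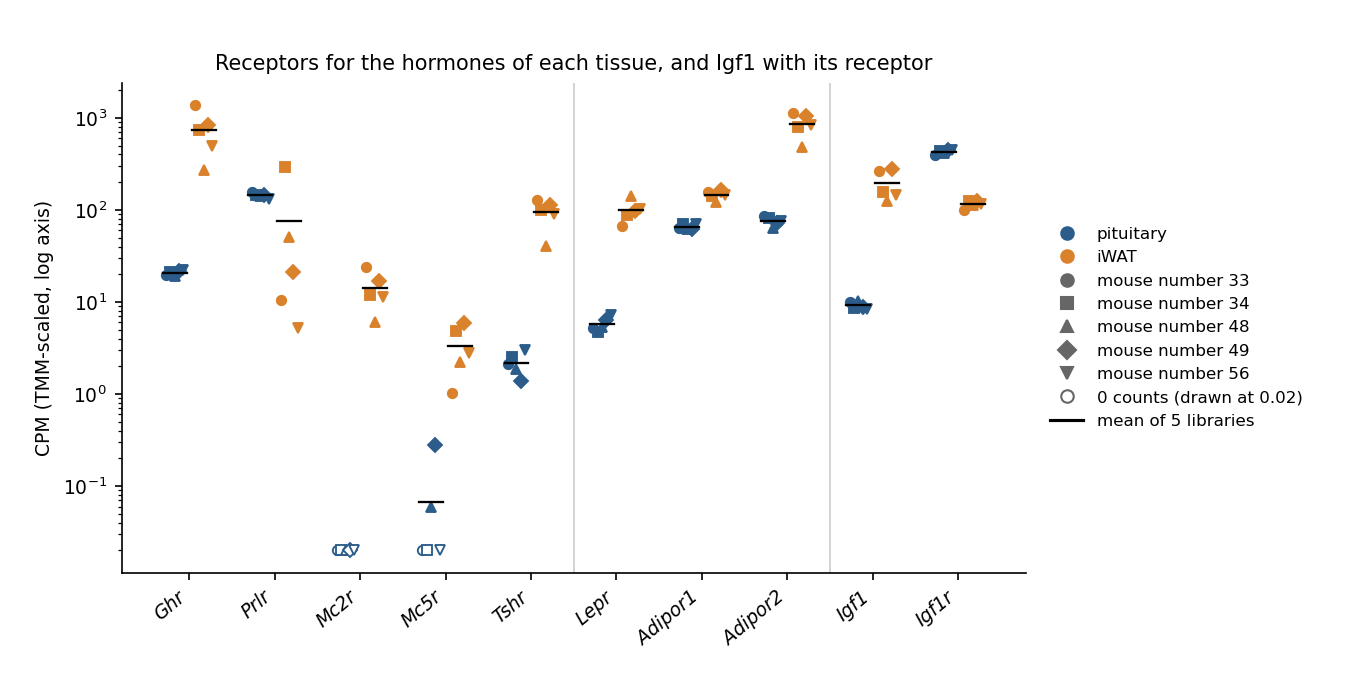
TMM-scaled CPM on a log axis of receptors for pituitary hormones, receptors for adipokines, and Igf1 with its receptor, in each of the 10 libraries; colour is the tissue, symbol shape the mouse number, the bar the mean of 5, and open symbols are 0 counts drawn at 0.02. The groups overlap for Prlr only, where iWAT library 34 lies above the pituitary libraries.

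Receptors for adipokines did not show the mirror pattern. Of 7, 6 were higher in iWAT itself and 1 in the pituitary (median −3.48). Lepr, the leptin receptor, was at 66.1, 87.5, 141, 98.5 and 102 CPM in iWAT and 5.18, 4.68, 5.32, 6.39 and 7.25 CPM in the pituitary (−4.10 ± 0.21). Among the adiponectin receptors, Adipor1 was at 146 ± 15.6 CPM in iWAT and 65.4 ± 3.85 in the pituitary, and Adipor2 at 859 ± 249.3 and 75.5 ± 8.29. Cdh13, a binding protein of adiponectin, differed by −3.48 and Cmklr1, the chemerin receptor, by −5.17. Aplnr, the apelin receptor, was higher in iWAT (−1.42), while its ligand gene Apln was higher in the pituitary. Stra6, which takes up retinol from its carrier, was at 2.85 ± 0.747 CPM in the pituitary and 1.598 ± 0.767 in iWAT (0.83 ± 0.34, edgeR adjusted p = 0.0422), a call lost when any of 8 of the 10 libraries was left out (edgeR adjusted p = 0.0517 to 0.103).

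Igf1, the growth factor that growth hormone induces, was at 266, 156, 126, 280 and 144 CPM in iWAT and 9.94, 8.66, 10.2, 8.75 and 8.44 CPM in the pituitary (−4.40 ± 0.25). Igf1r was at 395, 441, 411, 444 and 447 CPM in the pituitary and 100, 126, 113, 125 and 115 CPM in iWAT (1.88 ± 0.08, edgeR adjusted p = 1.77e-09). Of the 10 genes of growth hormone signalling, 3 were higher in the pituitary, 5 in iWAT and 2 were not called, beside 40.2% and 38.9% of all tested genes higher in each. The kinase gene Jak2 (−0.82 ± 0.10) and the factors Stat5a (−0.69 ± 0.07) and Stat5b (−0.21 ± 0.06) were higher in iWAT (Stat5b not with library totals as the scale, edgeR adjusted p = 0.208), as was Igfbp4 (−3.32 ± 0.17), while the feedback inhibitors Socs2 (0.72 ± 0.16) and Cish (1.07 ± 0.14) were higher in the pituitary. Socs3, another inhibitor, and Igfbp3, the main carrier of IGF1 in blood, did not pass the test (edgeR adjusted p = 0.859 and 0.208).

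Of 13 tested receptors and enzymes of steroid and thyroid hormones, 8 were higher in the pituitary and 2 in iWAT (median 1.42). Over all tested genes the shares were 40.2% and 38.9%. Esr1, the estrogen receptor, was at 218 ± 7.84 CPM in the pituitary and 44.7 ± 15.9 in iWAT (2.29 ± 0.22). The mineralocorticoid receptor gene Nr3c2 (1.95 ± 0.09), the thyroid hormone receptor gene Thrb (1.42 ± 0.17), the vitamin D receptor gene Vdr (2.15) and Rxrg (2.14), a partner of such receptors, were higher in the pituitary, and so was the 5-alpha-reductase gene Srd5a1 (0.98). Nr3c1, the glucocorticoid receptor (−0.82 ± 0.09), and Hsd11b1, which regenerates active glucocorticoid (−2.64 ± 0.14), were higher in iWAT. Thra, Pgr and Dio1 did not pass the test (edgeR adjusted p = 0.192, 0.0542 and 0.100), and Esr2 was too low to test.

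Hox genes, which encode position along the trunk, gave an on and off pattern. All 27 Hox genes tested were higher in iWAT, against 38.9% of all tested genes. Their median was −8.59, or −7.43 when the 14 genes with 0 pituitary counts are set to their bound. The pituitary counts were too low to admit any Hox gene to the test. The low-count filter thus fixed the direction of these calls, and the levels below are a description. Of the 39 Hox genes in the files, 26 had 0 counts in all pituitary libraries and 36 had 3 counts or fewer there in all. The highest pituitary count was 18, for Hoxc4. Hoxc8 was at 61.6, 32.2, 22.4, 45.6 and 31.7 CPM in iWAT with 1 count in the pituitary (ratio 3021.3, 95% counting interval 542 to 119380). All 4 clusters were read in iWAT, with a summed mean of 47.7 CPM for the Hoxa genes on chromosome 6, 41.9 for Hoxb on chromosome 11, 88.5 for Hoxc on chromosome 15 and 35.9 for Hoxd on chromosome 2. Per length, Hoxc8 (16.3 ± 6.43 RPKM) was above Hoxc10 (5.43 ± 1.37) and Hoxc9 (5.17 ± 1.56), which do not differ beyond their spread, and Hoxa10 was at 2.99 ± 1.21 RPKM. None of the 9 genes of groups 11 to 13 was expressed enough to be tested.

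Klf14, the gene that the study deleted in its other libraries, was at 18.3, 13.5, 15.5, 16.7 and 16.8 CPM in the wild-type pituitary and at 3.12, 0.324, 0.0614, 0.807 and 0.333 CPM in wild-type iWAT. Every pituitary library lay above every iWAT library, and the difference was 4.11 ± 0.60 (edgeR adjusted p = 6.18e-05). Library 33 held the highest iWAT level, and only 72 counts were found in iWAT in all. Among 16 tested Krüppel-like factor genes 5 were higher in the pituitary and 8 in iWAT (median −0.34), beside 40.2% and 38.9% of all tested genes. Klf14 and Klf12 (3.26 ± 0.09) were the clearest pituitary members. Klf2 (−4.10 ± 0.21) and Klf4 (−4.01 ± 0.31), which endothelial and immune cells also express, were the clearest iWAT members.

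Imprinted genes, which are read from 1 parental copy and are often linked to growth and endocrine function, were mostly higher in the pituitary, in 23 of 29 tested, with 2 higher in iWAT (median 2.64). Leaving out genes that share exon bases, the counts were 12 and 2 of 16. Large differences came from the cluster on chromosome 12. Meg3, its maternal noncoding RNA, was at 5646, 5177, 5188, 5636 and 5510 CPM in the pituitary and 50.7, 17.7, 10.6, 41.5 and 14.0 CPM in iWAT (7.66 ± 0.50), and it shares exon bases with other genes. Dlk1, the paternal gene of the cluster and a marker of fat progenitors, was at 434 ± 43.2 CPM in the pituitary and 0.594 ± 0.428 in iWAT (9.49 ± 0.29), and Rian differed by 7.47 ± 0.56. Nnat, a small membrane protein gene of endocrine and neural cells, was at 3210, 2466, 2708, 2407 and 2602 CPM in the pituitary and 752, 217, 59.9, 224 and 142 CPM in iWAT. Mest was at 501 ± 29.0 CPM in the pituitary and 112, 9.19, 11.4, 21.7 and 19.0 CPM in iWAT (3.85 ± 0.65). For both genes iWAT library 33 was far above the other 4. Igf2r (−0.92 ± 0.09) and Mkrn3 (−1.67 ± 0.22) were higher in iWAT.

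All 12 genes of endoplasmic reticulum folding and secretion were higher in the pituitary (median 0.89), with the chaperone gene Hspa5 at 727 ± 37.7 against 273 ± 57.1 CPM and Creb3l2, a regulator of secretory capacity, at 146 ± 12.7 against 36.6 ± 8.10 CPM. All 19 oxidative phosphorylation genes were higher in iWAT (median −0.95), from Cox5a (−2.09 ± 0.11) to Atp5a1 (−0.27 ± 0.06). Of 75 ribosomal protein genes 57 were higher in iWAT and 2 in the pituitary (median −0.42), with 40 and 2 when library totals were used without TMM scaling. Of 14 clock genes 9 were higher in the pituitary, against 40.2% of all tested genes. Hlf (2.96 ± 0.14) and Per3 (2.18 ± 0.16) led them, while Per1 (−0.65 ± 0.21) was 1 of 2 higher in iWAT. No label gives the time of day at which tissue was taken. Among 12 immediate early genes, which respond quickly to stimulation and to handling, 6 were higher in the pituitary and 4 in iWAT, beside 40.2% and 38.9% of all tested genes. Fos (3.37 ± 0.46) and Egr1 (2.19 ± 0.21) were higher in the pituitary and Jun (−1.54 ± 0.25) and Zfp36 (−2.03 ± 0.17) were higher in iWAT. Fos was at 243, 152, 228, 78.1 and 144 CPM in the pituitary, among its 10 most variable genes.

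Of 15 genes often used as references, 8 were higher in iWAT, 1 was higher in the pituitary and 6 were not called (median −0.22), beside 79.1% called over all tested genes. Actb, the cytoskeletal actin, was at 3592 ± 569 CPM in iWAT and 819.5 ± 22.4 in the pituitary (−2.13 ± 0.11), and B2m, the light chain of class I antigen molecules, differed by −2.25 ± 0.13. Gapdh differed by −0.22 ± 0.09, a call lost without pituitary library 34, 48 or 49 or iWAT library 33 (edgeR adjusted p = 0.0571 to 0.0936) or with library totals as the scale (0.210 in edgeR), and Tbp by 0.29 ± 0.09. Hprt was not called (edgeR adjusted p = 0.146). Eef1a1, an elongation factor, was at 3999, 3899, 3994, 3878 and 3965 CPM in the pituitary and 3688, 4006, 4253, 3881 and 4100.5 CPM in iWAT, a difference of −0.01 ± 0.08 (edgeR adjusted p = 0.876). Malat1 was at 25003 ± 907 and 24515 ± 1318 CPM (0.03 ± 0.11, edgeR adjusted p = 0.824). Both are within the spread of their libraries, and the sign of each changed with the setting.

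In the pituitary, after Tshb, the histone methyltransferase gene Setdb2 (44.0%), Col1a1 (42.4%), the antioxidant gene Srxn1 (40.7%) and Fos (39.9%) had the highest coefficients of variation. Srxn1 was at 94.1, 183, 83.3, 98.1 and 75.8 CPM, with library 34 standing above the other 4. In iWAT Ucp1 (191.7%), Fcgbp (182%), Prlr (160.4%) and Mest (126%) led, followed by genes that included the urinary protein gene Mup7 (110.5%) and the natriuretic peptide clearance receptor gene Npr3 (109%). Fcgbp, a mucus protein gene, was at 1.27, 112, 13.1, 4.10 and 1.33 CPM in iWAT, high in library 34 as the epithelial markers were. Mup7 was at 44.5, 11.2, 6.20, 114 and 23.3 CPM, highest in libraries 49 and 33. Library 56 was at 23.3 CPM, below both, although its liver markers, at 538 CPM, were well above those of libraries 34 and 48. Mup7 shares exon bases with another gene. Npr3 was at 851, 129, 37.8, 339 and 143 CPM, highest in library 33 and lowest in library 48, the order that Lep also had at its ends.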

How the data were processed

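RNA was measured by poly(A) RNA sequencing, with single-end reads of 100 nucleotides, in 5 pituitary and 5 iWAT libraries of wild-type mice; the 10 knockout libraries were not used. Per the file headers the authors counted reads on exons per gene with featureCounts 1.4.4, using primary alignments, counting a read for each gene it overlaps and setting no strand option; 3147 genes share exon bases with another gene. The deposited values are raw counts. Alignment with STAR 2.4.0 and the builds mm10 and GRCm38 are named per the submitters' processing notes. The members and lists were chosen with earlier results of these data known, and the liver and epithelium lists were added after the data were seen.

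Genes were filtered with filterByExpr, scaled by TMM and tested in edgeR 4.0.16 (R 4.3.3) with robust quasi-likelihood fits on tissue alone and Benjamini-Hochberg adjustment over 17023 genes. A test against a 2-fold difference used glmTreat. Per-library values were compared by exact two-sided permutation tests in scipy 1.17.1. Ratios for genes with 0 counts in a tissue use a floor of 3 counts over its 5 libraries, and genes with 1 to 3 counts have a 95% exact counting interval; floors and intervals cover counting error only, since reads carry no molecular identifiers. Total counts of 14.0 to 17.2 M (mega-counts) per library set the precision. Named genes are the 6 markers, the 12 highest by RPKM in each tissue, the 12 largest differences in each direction past the 2-fold test with at least 50 CPM in the higher tissue, the 12 highest by RPKM among genes not called, the 10 most variable in each tissue at 20 CPM or more, and, from each list, the members called with the largest and smallest p, those against the list median and those highest by RPKM, with every member of the hormone, receptor and signalling lists between the tissues. Alternatives were DESeq2 1.42.0, limma 3.58.1 (voom), other scalings and filters, mouse number as a block, age as a covariate, genes sharing exons left out, and libraries left out. The fits were tested on simulated data in which few genes differed and each gene had the same spread in both tissues. That test does not cover a comparison in which most genes differ and the spread is unequal. Promoter windows came from a RefSeq table of GRCm38.p6. Some genes are not reported here.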

Additional observations from a re-analysis of the deposited data

Results flagged for a closer look

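Of 154 groups of 5 libraries examined (library totals, summed lists and single genes in each tissue), 15 held a value that stood farther from the other 4 libraries of its tissue than Dixon's 95% limit for 5 samples. Chance alone passes that limit in about 1 in 20 groups, or 7.7 of 154. The single genes examined were chosen with their values known.

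In iWAT library 34 the epithelial markers summed to 516 CPM, with 87.6 CPM in the next library, and their members Krt8 (63.5 CPM), Krt18 (77.7 CPM) and Epcam (41.0 CPM) stood apart with them. In the same library Prlr, the prolactin receptor gene, was at 290.1 CPM, with 50.5 CPM in the next. In iWAT library 48 Ucp1, the uncoupling protein gene, was at 114 CPM against 7.33 in the next library, and Cidec, the droplet protein gene, was low at 941 CPM with 1986 CPM as the next lowest. In iWAT library 33 the imprinted genes Nnat (752 CPM) and Mest (112 CPM) were high, with 224 and 21.7 CPM in the next libraries.

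In the pituitary the distances were smaller. Library 33 was highest for Pou1f1 (145 CPM, with 134 in the next) and Epcam (364 CPM, with 323). Library 48 was lowest for Dio2, the deiodinase gene (73.8 CPM, with 102 as the next lowest), and for the summed thermogenic genes (138 CPM, with 167), a list that holds Dio2. Library 34 was highest for the summed adipogenic factors (260.2 CPM, with 214) and library 56 for the summed liver markers (49.4 CPM, with 34.2).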

How the results depend on the processing

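The number of called genes ranged from 11464 of 14444 tested without genes that share exon bases to 14831 of 23170 tested without a filter. The 2 ends thus rest on different numbers of tested genes. Of the 17023 genes of the main fit, 13612 were called by DESeq2, 13633 by limma voom and 12057 at an adjusted p under 0.01. Library totals without TMM moved the median of all genes by 0.0956 on the log2 scale. Leaving out 1 library at a time gave 13196 to 13632 called genes, 6591 to 6768 past the 2-fold test, 279 to 341 and 154 to 173 genes restricted to the pituitary and iWAT, and a spread ratio of iWAT over pituitary of 2.77 to 3.28. With mouse number as a replicate block, 13197 genes were called, 13069 of them shared with the fit without it. No label says that a number is a single animal, so the numbers were not taken to pair the samples. Deviations from the tissue mean correlated at 0.0117 to 0.0553 between same-numbered libraries, and 2 of 5 correlated best with their own number. Unlike tissues of a single animal need not deviate alike, so these values cannot decide the pairing. The test against 4-fold passed 3837 genes, 1977 and 1860 by tissue, by construction fewer. At 20 CPM or more against under 1 CPM, 179 and 74 genes were restricted. The 10 most abundant genes in place of 100 gave a difference of 6.93 percentage points (exact permutation p = 0.00794), and genes with at least 1 count differed by −257.6, the other direction (exact permutation p = 0.857). That last mean leans on iWAT library 33, with 21771 such genes. The other iWAT libraries held 19284 to 20019 and those of the pituitary 19593 to 19962. The spread ratio was 1.77 from the SD of log2 CPM and 2.59 over genes above 10 CPM.

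Of 6562 log2 differences over 301 named genes, 6427 kept direction and call, 64 gained a call, 49 lost it and 22 changed sign, the last in 10 genes, none of them called in the fit above. Calls were lost in Adcyap1r1, Stra6, Gapdh, Stat5b (adjusted p = 0.208 with library totals in edgeR), Stx1a (0.129 in edgeR without iWAT 33, 49 and 56) and 5 genes with no value given here (Apoa1, Ccna2, Ckm, Krt19 and Zmym1). Leaving out 1 library at a time, Slc27a4 ran from −0.031 to 0.122, Zfp423 from −0.074 to 0.191 and Socs3 from −0.102 to 0.057, each with its reversed end reached without iWAT 48 (and Socs3 also, at 0.048, without pituitary 49). Klf15 ran from −0.187 (without iWAT 48) to 0.186, and was also −0.158, −0.076 and −0.074 without pituitary 34, iWAT 33 and iWAT 56. Emcn ran from −0.260 to 0.0076 (without iWAT 49), Eef1a1 from −0.045 to 0.00016 (without pituitary 49) and Malat1 from −0.036 (without iWAT 56) to 0.052. With library totals Eef1a1 was 0.078 and Socs3 0.056. Without iWAT 34 and 48 together, an alternative added after seeing the data, Slc27a4 was −0.035, Klf15 −0.014, Zfp423 −0.139, Socs3 0.099 and Thra −0.029. Without iWAT 33, 49 and 56 together, likewise added, Sfrp5 was 0.463, Emcn 0.038, Prlr −0.249 and Malat1 −0.037. The cause of these changes was not tested. Promoter sets of the largest differences matched 65 and 62 of 100 genes to the table, under 80%, so that check is void.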

Other observations

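Some genes outside the lists were chosen after their values were seen and are given as values. Mrap, the accessory protein that the corticotropin receptor needs, was at 56.0 ± 16.6 CPM in iWAT and 0.332 ± 0.153 in the pituitary (−7.36 ± 0.34), while its relative Mrap2 was at 28.5 ± 5.44 CPM in the pituitary and 0.242 ± 0.170 in iWAT (6.81 ± 0.30). Klb, the coreceptor of the hormone FGF21, was higher in iWAT (−7.82 ± 0.31), and its relative Kl, the klotho gene, in the pituitary (8.16 ± 0.43). The receptors for short fatty acids and ketone bodies Ffar2 (−9.75 ± 0.55) and Hcar2 (−8.59 ± 0.66) were higher in iWAT.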
